A study of Mus musculus with 8 samples.

Results

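The growth hormone and IGF-1 axis was followed through 9 genes, chosen by name (Ghr, Igf1, Igfals, Socs2, Cish, Stat5a, Stat5b, Bcl6 and Cux2). All 9 were among the 25010 genes of the RNA-Seq table, and all 9 passed the filter on low values (a mean of at least 10 normalized counts), as did 15578 genes in all. RNA was taken from the left liver lobe of 2 wild-type (WT) mice and 2 LXRDKO mice, which lack LXRα (Nr1h3) and LXRβ (Nr1h2) in the whole body, with 1 library per mouse. Values of a genotype are given with replicate 1 first. All mice had the C57BL/6 background, were 8 wk old and were fasted for 4 to 6 h before they were killed, and per the methods they ate standard chow. The labels give no sex. Y-linked Ddx3y had between 4242 and 4916 normalized counts in the 4 livers, Eif2s3y, Kdm5d and Uty, also Y-linked, were detected in each, and Xist, the RNA of the inactive X chromosome, had between 5.70 and 10.4.

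Growth hormone from the pituitary binds its receptor on hepatocytes and, through the kinase JAK2, activates the transcription factors STAT5A and STAT5B. These induce IGF-1, the main endocrine growth factor made by liver, its carrier ALS, and the feedback inhibitors CIS and SOCS2. In rodents the hormone is released in pulses in males and more evenly in females, and BCL6 and CUX2 are repressors that take part in the resulting sex-dependent gene expression of liver. Growth hormone pulses repress Bcl6, and CUX2 is known as a female-biased factor.

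STAT5 dimers bind the palindrome TTCNNNGAA, so the promoters of the members were searched for these letters, which read the same on both strands. Of the members, 8 (all but Socs2) matched 15 RefSeq promoter windows on GRCm38.p6, each from 250 bases before a transcript start to 50 after it. The letters occurred in 5 of the 15 windows (33.3%), at Cish, Bcl6 and Igfals, and in 8.30% of all 32851 windows. Some genes have several windows: counted by gene, 3 of the 8 members held the letters, and 2582 of all 27025 genes. Sequence outside the windows was not searched, so a gene without the letters here may hold them elsewhere. The stretches below are shown because Bcl6 and Cish had the largest differences between genotypes after Socs2, with Igfals as the remaining gene that held the letters, and capitals mark the palindrome. A further window each of Bcl6 and Igfals, at other starts, held it and is not printed. The Cish stretch holds it at 2 places, which begin at bases 1 and 12 of the transcript, and at least 2 places in a window were found in 0.457% of all windows.
Cish, chr9:107296654-107296683, + strand: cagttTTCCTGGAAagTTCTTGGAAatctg
Bcl6, chr16:23981433-23981461, - strand: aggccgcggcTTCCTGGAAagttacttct
Bcl6, chr16:23981387-23981415, - strand: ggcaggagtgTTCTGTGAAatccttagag
Bcl6, chr16:23981353-23981381, - strand: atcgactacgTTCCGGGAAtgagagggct
Igfals, chr17:24878163-24878191, + strand: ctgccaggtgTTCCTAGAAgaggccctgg
The 3 Bcl6 stretches lie in 1 window, and windows with at least 3 places made up 0.0335% of all windows. The cutoffs of 2 and 3 places are the counts that the Cish and Bcl6 windows themselves held, so these shares are descriptive and enrichment was not tested. These matches describe the letters only, since binding was not measured.

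No member differed between genotypes at an adjusted P value of 0.05. This held for limma on log2(normalized count + 1), where 0.321% of all 15578 genes passed, for edgeR on the recovered reads, where 0.315% passed, and for DESeq2, where 3.59% passed. Without adjustment, limma gave 1 member (Socs2) a P value under 0.05, a rate that was 13.3% over all genes. The median log2 difference of the 9 members, LXRDKO minus WT, was −0.015, against −0.0046 over all genes tested. The LXRDKO values lay above all WT values for 3 members (Igf1, Socs2 and Cish) and for 21.7% of all genes. They lay below for 3 (Ghr, Stat5b and Bcl6) and for 23.0% of all genes, and 44.7% of genes were separated in either direction. With 2 livers against 2, an exact two-sided permutation test cannot give a P value under 0.333, so each test rests on the spread that is pooled across genes.

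WT replicate 1 stood apart from the other 3 livers at Socs2, Cish and Bcl6. It did not at Igf1, where it lay among them, or at Igfals, where the 2 WT livers were the highest and the lowest. It was the highest or the lowest liver for 7 of the 9 members, and for 51.4% of all genes. The 2 WT livers differed by more than 2-fold at 4 members (Socs2, Cish, Bcl6 and Cux2), and at 6.28% of all genes. The LXRDKO livers differed by that much at 1 member, Cux2, and at 4.39% of all genes.

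**Figure D1:**
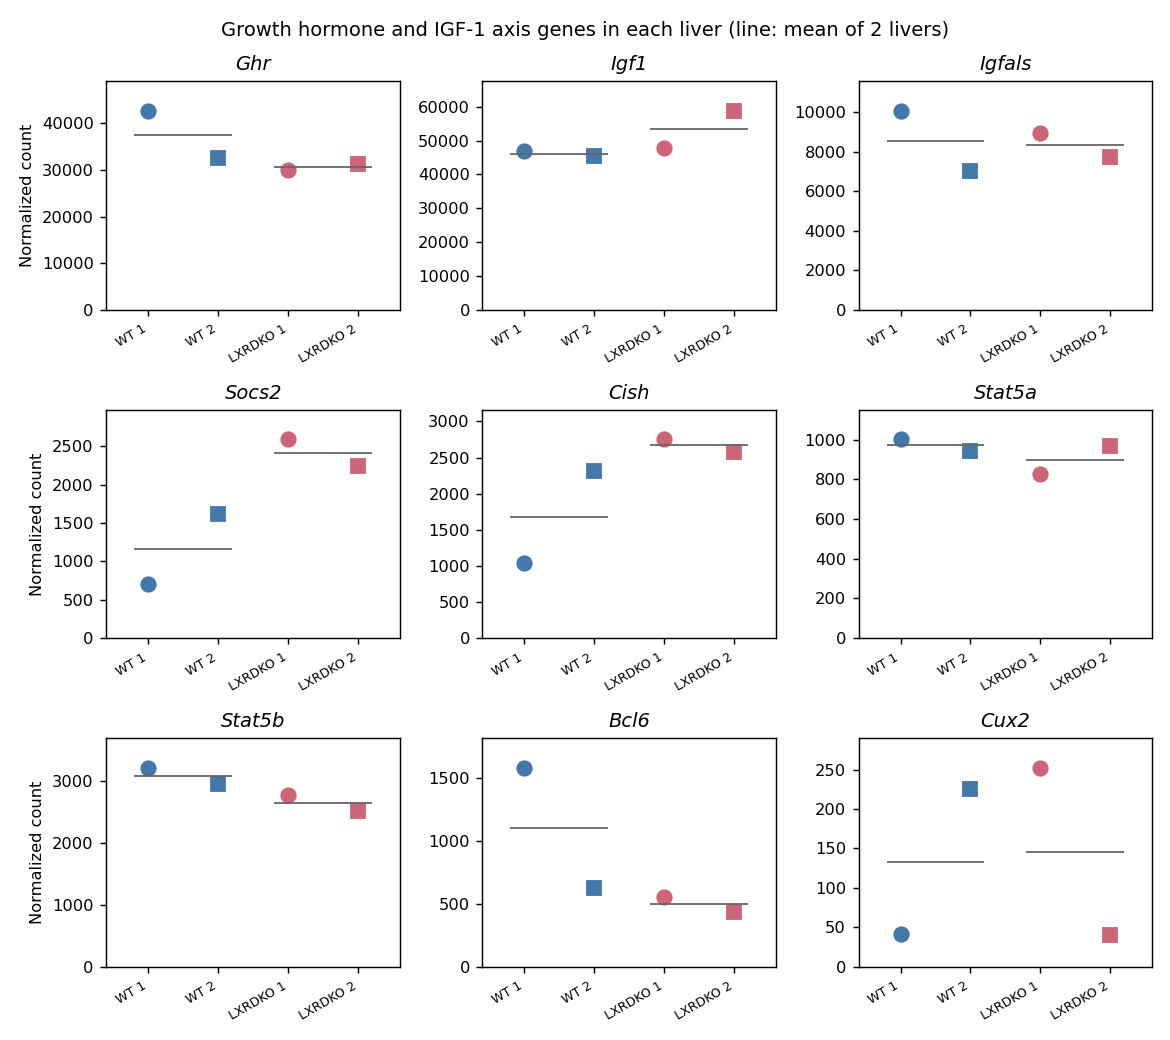
Normalized counts of the 9 genes in each of the 4 livers, with a linear axis from 0 for each gene and a line at the mean of the 2 livers of a genotype. Socs2 and Cish were lowest and Bcl6 highest in WT replicate 1, whereas Igf1 lay between 45364 and 58796 in all livers.

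Ghr, on chromosome 15 from 3317760 to 3583492 (GRCm38), encodes the growth hormone receptor. Its level was 42689.8 and 32497 normalized counts in the WT replicates and 30062 and 31294 in the LXRDKO replicates. The LXRDKO values were the lower ones, yet WT replicate 2 lay closer to them than to the other WT liver. The log2 difference was −0.28 (standard error 0.16, adjusted P = 0.520, limma), and it was −0.083 without WT replicate 1.

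Stat5b, the more abundant STAT5 gene of liver, lies on chromosome 11 from 100780731 to 100850724. The gene stood at 3221 and 2962 normalized counts in the WT replicates and at 2788 and 2524 in the LXRDKO replicates, a log2 difference of −0.22 (standard error 0.10, adjusted P = 0.426, limma). Its groups did not overlap, but the step between them was smaller than the step between the livers of either genotype. Stat5a, its neighbor from 100859351 to 100885169, was measured at 1001 and 945 normalized counts in the WT replicates and at 827 and 970.1 in the LXRDKO replicates, and the groups overlapped. Its log2 difference was −0.12 (standard error 0.13, adjusted P = 0.757, limma). Stat5a and Stat5b are close paralogs that can share reads. Stat5a also shares 72 exon bases with Stat3 on the opposite strand, and the strand setting of the counting is not given in the sources used here.

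Igf1, on chromosome 10 from 87858265 to 87937042, encodes IGF-1. Expression was 46952 and 45364 normalized counts in the WT replicates and 47796 and 58796 in the LXRDKO replicates. LXRDKO replicate 2 was the highest, and the other livers lay close together. The log2 difference was 0.20 (standard error 0.14, adjusted P = 0.628, limma), with a 95% interval from −0.15 to 0.55. A 2-fold change, 1 on this scale, lay outside the interval. The 2 WT livers differed less at Igf1 than at most genes: 16.1% of all genes tested had a smaller difference.

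Igfals, on chromosome 17 from 24865997 to 24882010, encodes ALS, which holds IGF-1 and its binding protein in a stable complex in blood. Its normalized counts were 10062 and 7028 in the WT replicates and 8938 and 7749 in the LXRDKO replicates. Both LXRDKO values lay between the WT values, so the groups overlapped. The log2 difference was −0.015 (standard error 0.19, adjusted P = 0.983, limma), with a 95% interval from −0.48 to 0.45, and its sign turned with the scaling (0.025 with upper-quartile scaling).

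Socs2 encodes an inhibitor of growth hormone receptor signalling and lies on chromosome 10 from 95385362 to 95417180. Its normalized counts were 711 and 1622 in the WT replicates and 2592 and 2245 in the LXRDKO replicates. The LXRDKO values were the higher ones, and the 2 WT livers were further apart than the 2 LXRDKO livers. The mean was 1166 ± 644 in WT and 2418 ± 246 in LXRDKO (SD, n = 2 each), 2.07 times as high. The log2 difference of 1.17 was the largest positive difference among the members (standard error 0.37, unadjusted P = 0.0215, adjusted P = 0.293, limma). It did not pass in DESeq2 either (adjusted P = 0.505). Without WT replicate 1 it was 0.57, and without WT replicate 2 it was 1.76.

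Cish, on chromosome 9 from 107296026 to 107302784, encodes CIS, a feedback inhibitor that STAT5 induces directly. The level was 1046 and 2319 normalized counts in the WT replicates and 2752 and 2581 in the LXRDKO replicates. As at Socs2, WT replicate 1 was the lowest liver and WT replicate 2 came nearer to the LXRDKO livers. The log2 difference was 0.77 (standard error 0.35, adjusted P = 0.422, limma), and it moved between 0.20 without WT replicate 1 and 1.35 without WT replicate 2. Cish shares 479 exon bases with an antisense transcript, Gm17041, that had a mean of 28.8 normalized counts.

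Bcl6, on chromosome 16 from 23965052 to 23988852, encodes a repressor that competes with STAT5 at shared sites. Its expression stood at 1581 and 627 normalized counts in the WT replicates and at 554 and 437 in the LXRDKO replicates. The order of the livers was the reverse of that at Socs2 with respect to WT replicate 1, which was the highest, and WT replicate 2 was close to LXRDKO replicate 1. The mean was 1104 ± 674 in WT and 496 ± 82.7 in LXRDKO (SD, n = 2 each), 0.449 times as high. The log2 difference was −1.01 (standard error 0.42, adjusted P = 0.393, limma). Leaving out WT replicate 1 gave −0.35, and leaving out WT replicate 2 gave −1.68.

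When WT replicate 2 was left out, so that WT replicate 1 alone stood for WT, 3 members passed an adjusted P value of 0.05, as did 1.01% of all genes. These were Socs2 (adjusted P = 0.00847), Cish (adjusted P = 0.0124) and Bcl6 (adjusted P = 0.0175, all limma). In that fit the lone WT liver is assumed to vary as the LXRDKO livers do. Without WT replicate 1 none of the 3 passed, with adjusted P values of 0.155, 0.643 and 0.596 for the same genes (limma). The size of these differences therefore depended on which WT liver was used.

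**Figure D2:**
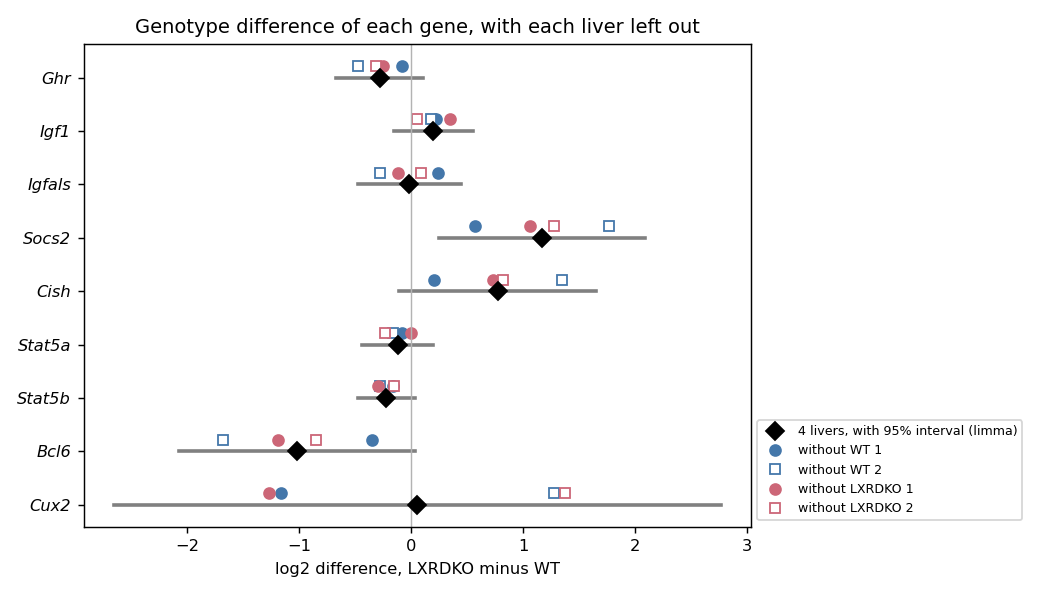
The log2 difference, LXRDKO minus WT, of each gene from all 4 livers (diamond, with the 95% interval of limma as a bar) and with each liver left out in turn (small symbols). For Socs2 the values ran from 0.57 to 1.76, for Bcl6 from −1.68 to −0.35, and for Cux2 they lay on both sides of 0.

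Cux2, on chromosome 5 from 121856366 to 122050102, varied most within genotype. Its level was 41.1 and 226 normalized counts in WT, from 36 and 266 reads. The LXRDKO livers had 252 and 39.7, from 266 and 37 reads. Thus WT replicate 2 and LXRDKO replicate 1 were high, and the other 2 livers were low. The difference between the WT livers was larger than at 99.5% of all genes tested, and that between the LXRDKO livers was larger than at 99.8%. The log2 difference between genotypes was 0.056 (standard error 1.09, adjusted P = 0.989, limma), and its 95% interval, from −2.65 to 2.76, leaves even large changes undetectable with these livers.

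Per kilobase of annotated exon, the levels of the 9 genes spanned a wide range. Igf1 was highest, with 5021 ± 619 normalized counts per kb (SD over the 4 livers), followed by Ghr with 3771 ± 639 and Igfals with 2666 ± 422. The ranges of Igf1 and Ghr overlapped, and that of Igfals lay below them. Stat5b had 519 ± 52.9 and Cish 339 ± 120.4 normalized counts per kb, without overlap between them. Socs2, Stat5a and Bcl6 followed with 188 ± 86.6, 131 ± 10.7 and 119 ± 78.6 normalized counts per kb, and each of them overlapped the gene above it in this order, Socs2 that of Cish included. Cux2 was lowest, with 13.9 ± 11.4 normalized counts per kb.

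For the 2 members that varied most over the 4 livers, Cux2 and Socs2, the nearest genes were sought by the Euclidean distance of centred log2 values among all genes tested. The genes nearest to Socs2 were Gm48582, Gm28050 and 5730420D15Rik, at distances of 0.087, 0.11 and 0.12 on the log2 scale. The last of these is a noncoding RNA annotated as sharing a bidirectional promoter, and it starts 195 bases from the start of Socs2 on the opposite strand. Its normalized counts were 9.12 and 21.2 in the WT replicates and 38.9 and 31.1 in the LXRDKO replicates, the same order of livers as at Socs2. Nearest to Cux2 were 3930402G23Rik, Slc4a9 and Gm43859, at distances of 0.45, 0.98 and 1.02. Of these, 3930402G23Rik was measured at 5.70 and 27.2 normalized counts in the WT replicates and at 32.3 and 6.43 in the LXRDKO replicates. These are likenesses over 4 livers at low counts.

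Among 22 other genes of growth hormone receptor signalling, limma, edgeR and DESeq2 each called 0, against 0.321%, 0.315% and 3.59% of all genes. At such low shares, 0 calls do not set a list of this size apart from all genes. The same shares apply to the lists that follow. Without adjustment, 2 passed in limma (Jak2 and Irs2), a smaller share than the 13.3% of all genes. The median log2 difference was −0.16, with 8 genes higher, 14 lower and a range from −0.74 to 0.64. Stat3, Prlr, Ptpn11 and Onecut1 had the most normalized counts in this list. Stat3 encodes a related signal transducer and was measured at 9092 and 8035 normalized counts in the WT replicates and at 7406 and 7643 in the LXRDKO replicates, a log2 difference of −0.18. The other 3 had log2 differences of −0.23 (Prlr), −0.17 (Ptpn11) and −0.20 (Onecut1). For Jak2, the kinase bound to the receptor, the log2 difference was −0.40 (standard error 0.11, adjusted P = 0.248, limma), from 1418 and 1355 normalized counts in the WT replicates and 1122 and 982 in the LXRDKO replicates. Socs3, a further inhibitor of the SOCS family, was measured at 372 and 660.4 normalized counts in the WT replicates and at 850.5 and 699 in the LXRDKO replicates. Its log2 difference was 0.64 (standard error 0.28, adjusted P = 0.414, limma), and WT replicate 1 was again the lowest liver. Jak2, Irs2 and Socs3 were chosen once their values had been seen.

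Of 15 other genes of the IGF system, 11 passed the filter, limma and edgeR called 0 of them, and DESeq2 called 1, against 3.59% of all genes. Without adjustment, 2 (Insr and Igfbp3) passed in limma, against 13.3% of all genes. The list had a median log2 difference of 0.043 and a range from −0.49 to 0.77. The gene that DESeq2 called was Igfbp3, which encodes the main IGF-1 carrier of blood. Its level stood at 1033 and 1541 normalized counts in the WT replicates and at 2046 and 2278 in the LXRDKO replicates. The groups did not overlap. The log2 difference was 0.77 (standard error 0.20), with adjusted P values of 0.218 in limma and 0.0229 in DESeq2. Leaving out WT replicate 1 gave 0.49, and leaving out WT replicate 2 gave 1.06 (adjusted P = 0.0296, limma). Igfbp3 is made by nonparenchymal cells of liver. Of 8 stellate cell markers, 5 were higher in LXRDKO without overlap (21.7% of all genes), and 3 passed in limma without adjustment (13.3% of all genes). Limma and edgeR called 0 of the 8, and DESeq2 called 2 higher, Reln and Dcn, against 1.56% of all genes. Their summed normalized counts were 12645 and 16070.1 in WT and 18352 and 21315 in LXRDKO livers. Of 8 sinusoidal endothelial markers, limma and edgeR each called 2 lower (Kdr and Cdh5), against 0.321% and 0.315% of all genes in either direction, and the sum of the 8 was 16101 and 14702 in WT, 12559 and 9596 in LXRDKO. None of the stellate or endothelial markers was at 0. The 12 Kupffer cell and macrophage markers, taken up under the other observations, went lower as a sum, with 16646 and 18434 in WT, 11766 and 6994 in LXRDKO. The part of these cell types in the Igfbp3 result was not tested. In whole liver, fewer cells of a type and less RNA per cell cannot be told apart.

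**Figure D3:**
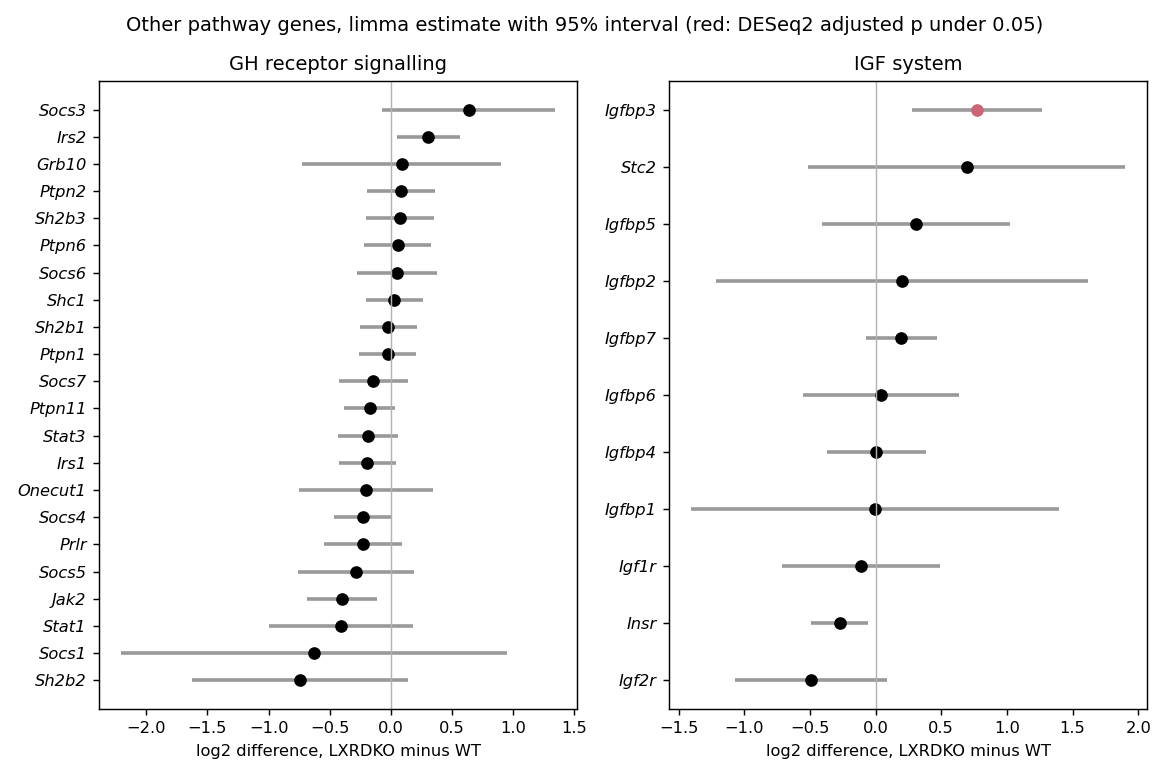
The log2 difference, LXRDKO minus WT, of the other tested genes of growth hormone receptor signalling (left) and of the IGF system (right), each as a point with its 95% interval from limma. Igfbp3, in red, was the gene that DESeq2 called, and intervals of Igfbp1 and Igfbp2 were wide.

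Igfbp2 and Igfbp1, also chosen once their values had been seen, varied between livers of the same genotype. Igfbp2 was measured at 19771 and 39598 normalized counts in the WT replicates and at 55935 and 18427 in the LXRDKO replicates, so WT replicate 2 and LXRDKO replicate 1 were the high livers, as they were for Cux2. Igfbp1, a binding protein that insulin represses, was measured at 1874 and 4606 normalized counts in the WT replicates and at 1831 and 4694 in the LXRDKO replicates. For neither was a difference between genotypes detected (log2 differences of 0.20 and −0.0030, adjusted P = 0.927 and 0.999, limma).

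Genes known to be male- or female-biased in mouse liver, many of which depend on the growth hormone pattern, were described as 2 further lists. Of 25 male-biased genes, limma and edgeR called 0, 4 passed in limma without adjustment (13.3% of all genes), and DESeq2 called 3 lower and 0 higher, against 2.03% lower and 1.56% higher over all genes. These were Cyp4a12a, Cyp4a12b and Cspg5. Cyp4a12a, a fatty acid hydroxylase gene, was measured at 12211 and 9294 normalized counts in the WT replicates and at 5662 and 7098 in the LXRDKO replicates, a log2 difference of −0.75 (adjusted P = 0.18 from limma and 0.00481 from DESeq2). Its close copy Cyp4a12b, with which it can share reads, had a log2 difference of −1.05. Cspg5 was measured at 222 and 253 normalized counts in the WT replicates and at 60.7 and 31.1 in the LXRDKO replicates, a log2 difference of −2.42 (adjusted P = 0.089 from limma and 2.45e-07 from DESeq2).

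Among the male-biased genes the WT livers stood apart from each other. WT replicate 2 was the lowest liver for 20 of the 25 genes, and for 25.5% of all genes. Because the Mup genes include near-identical copies that can share reads, the count was also made without any Mup gene. WT replicate 2 was then the lowest for 11 of 16. The WT livers differed by more than 2-fold at 14 of the 25 genes and the LXRDKO livers at 3, against 6.28% and 4.39% of all genes. Mup7, which encodes a major urinary protein, was measured at 24673 and 2005 normalized counts in the WT replicates and at 13399.7 and 7131 in the LXRDKO replicates. Moxd1 had 643 and 0.849 normalized counts in WT livers, the latter from 1 read, and 56.0 and 608 in LXRDKO livers. Cyp7b1, an oxysterol hydroxylase gene, was measured at 23124 and 5128 normalized counts in the WT replicates and at 30756 and 29891 in the LXRDKO replicates. The median log2 difference of the list was 0.47 in limma, but 0.044 in DESeq2 and 0.066 in edgeR, with all 4 livers in each. In limma it was −0.52 without WT replicate 2, so its direction rested on that liver. Mup7, Moxd1 and Cyp7b1 were chosen once their values had been seen.

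Of 27 female-biased genes other than Cux2, 19 passed the filter. Limma and edgeR called 0, 5 passed in limma without adjustment (13.3% of all genes), and DESeq2 called 1 lower (2.03% of all genes), Ntrk2. This gene was measured at 57.0 and 249 normalized counts in the WT replicates and at 34.2 and 38.6 in the LXRDKO replicates, a log2 difference of −1.69 (adjusted P = 0.373 from limma and 0.0325 from DESeq2), and −0.64 without WT replicate 2. WT replicate 1 was the lowest liver for 12 of the 19 genes, against 24.9% of all genes, and WT replicate 2 the highest for 8, against 24.6%. Cyp2a4 was measured at 53.6 and 3470 normalized counts in the WT replicates and at 34.2 and 83.6 in the LXRDKO replicates, and its high value in 1 liver was the largest contrast on the list. Cyp2b9 was measured at 43.3 and 77.2 normalized counts in the WT replicates and at 588 and 67.5 in the LXRDKO replicates. It was high in LXRDKO replicate 1 alone. Cux2 was high in that liver too, but also in WT replicate 2, where Cyp2b9 was not. The median log2 difference of the 19 genes was 0.40 in limma, and it was −0.099 without WT replicate 1 and −0.081 when the filter was raised to 50 normalized counts. The WT livers differed by more than 2-fold at 12 of the 19 genes and the LXRDKO livers at 7, against 6.28% and 4.39% of all genes. Cyp2a4 and Cyp2b9 were chosen once their values had been seen.

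**Figure D4:**
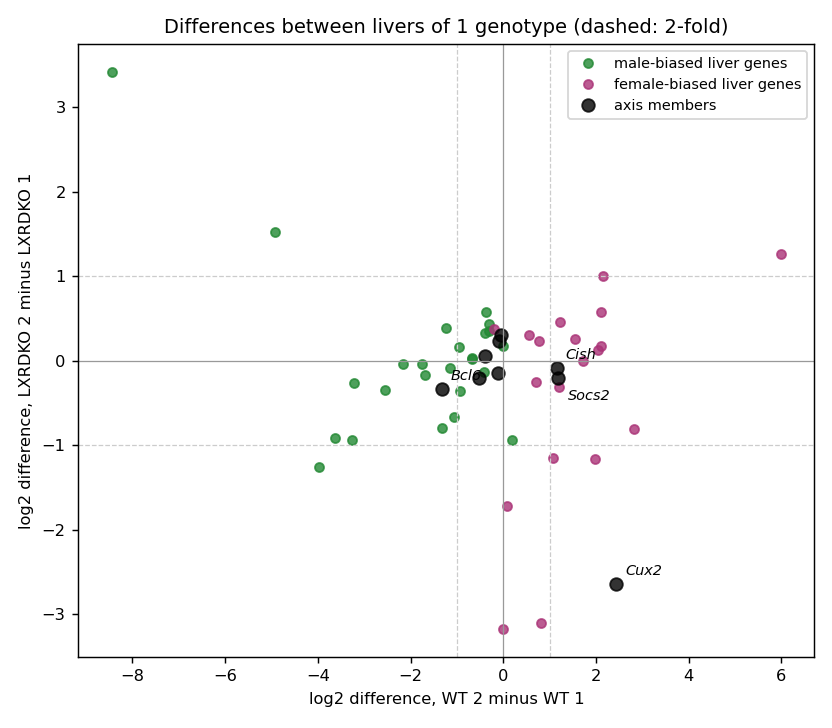
Differences between the 2 livers of a genotype on the log2 scale, with WT on the horizontal axis and LXRDKO on the vertical axis, for the 9 members (black) and the tested male-biased (green) and female-biased genes (purple). Male-biased genes lay mostly left of 0 (lower in WT replicate 2), female-biased genes mostly right of 0, and Cux2 was apart at 2.43 and −2.64.

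**Figure D5:**
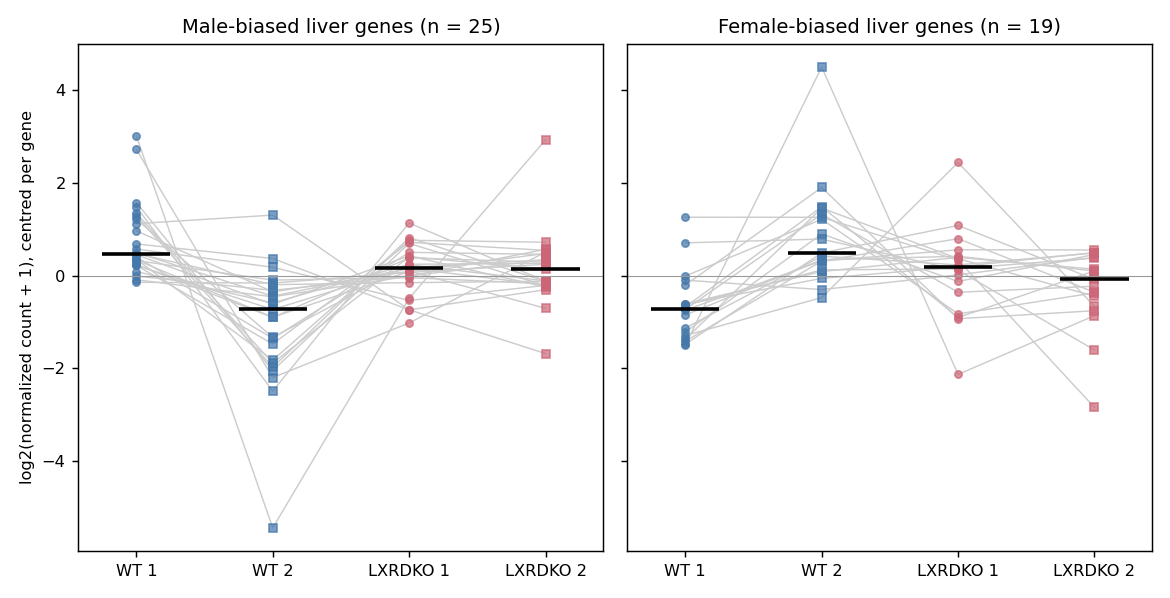
Values of log2(normalized count + 1), centred on the mean of each gene, for 25 male-biased and 19 female-biased genes in the 4 livers, with a gray line per gene and a black bar at the median. The median of the male-biased genes was 0.47 in WT replicate 1 and −0.73 in WT replicate 2, and that of the female-biased genes −0.73 and 0.49.

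The whole-series facts were as follows. Gene counts summed to between 55772659 and 72842744 reads per liver, so that counting error was small for every member but Cux2. The median absolute log2 difference between livers of a genotype was 0.18 for WT and 0.17 for LXRDKO. Both deleted receptors fell in LXRDKO livers, by 1.65 for Nr1h3 and 1.66 for Nr1h2 on the log2 scale (adjusted P = 0.0147 each, limma). All 7 hepatocyte markers matched were detected in every liver, with Alb between 4644569 and 5959085 normalized counts. Limma and edgeR called 0 of them (1 without adjustment in limma), and DESeq2 called 1 higher. This was Hnf4a, a hepatocyte transcription factor, at 44147 and 38999 normalized counts in the WT replicates and 70769 and 56007 in the LXRDKO replicates, a log2 difference of 0.60 (adjusted P = 0.224 in limma and 0.0115 in DESeq2).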

How the data were processed

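RNA-Seq of 4 livers was analysed, and the 4 ATAC-Seq samples were not analysed here. Per the study's methods and the labels, polyadenylated RNA was sequenced with a KAPA Stranded kit as single-end reads of 50 bp, aligned to mm10 with STAR 2.6.0c and normalized with DESeq2. The deposited values are a signal that the authors made by dividing read counts by 1 size factor per library. All values (100%) were whole multiples of 1 read within 0.05 reads, so reads were recovered. The counting tool is not given in the sources used here.

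The main test was limma 3.58.1 (R 4.3.3) on log2(normalized count + 1) (empirical Bayes with a trend, genes with a mean of at least 10), with Benjamini-Hochberg adjustment over 15578 genes. This scale understates changes of low genes. DESeq2 1.42.0 and edgeR 4.0.16 (quasi-likelihood) were run on the recovered reads, and all 3 were tested on simulated data. The simulation gave both genotypes the same spread, so it does not cover members whose WT livers lay far apart. Each mouse was 1 replicate. The labels do not say whether replicate numbers pair the mice. Across all genes tested, deviations of replicate 1 from the group mean had a correlation of 0.0031 between genotypes. That value cannot exclude a pairing that acts on some genes only. Positions and exon lengths came from GENCODE M21 on GRCm38, and promoters from RefSeq. The members and lists were chosen with earlier results of these data known. Named are all members, in each list the genes that limma or DESeq2 called or else the 4 with the highest mean, the deleted receptors, and the 3 genes nearest to each of the 2 most variable members; single genes of the lymphocyte list are not reported here. As alternatives, the pseudocount was 0.5 or 8, the filter was dropped or raised to 50, the scaling was upper-quartile or library total, limma was run without the trend or with robust moderation, a replicate block was added, the threshold was set to 0.10, and single livers were dropped from the fit.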

Additional observations from a re-analysis of the deposited data

How the results depend on the processing

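The number of members called was 0 under all alternatives with 4 livers, including the replicate block and the threshold of 0.10. With each liver left out it ran from 0 to 3, and the 3 came without WT replicate 2. The median log2 difference of the members ran from −0.16 to 0.051 with a liver left out. Calls in the IGF system were 1 with DESeq2 and 0 to 2 with a liver left out. In the male-biased list they were 3 with DESeq2, 1 at a threshold of 0.10 and 0 to 11 with a liver left out, the 11 without WT replicate 1. In the female-biased list they were 1 with DESeq2 and 0 to 3 with a liver left out. Growth hormone receptor signalling stayed at 0. Igfals turned to 0.025 with upper-quartile and 0.039 with total scaling, and ran from −0.27 to 0.24 with a liver left out. Cux2 ran from −1.26 to 1.38 with a liver left out. The cause of these shifts was not tested. Among the fits with a liver left out, calls over all genes were most numerous without WT replicate 1, as they were in the male-biased and female-biased lists. Such a fit leaves 1 liver in a genotype, so its counts describe dependence on that liver and are not evidence of a genotype difference. A share of all genes at the threshold of 0.10 is not given here. Over all genes limma called 50, against 567 with DESeq2, 1 without the trend, 25 with a mean of at least 50 and 2 to 265 with a liver left out. The replicate block, whose numbers are not known to pair the mice, called 90 genes and 0 members. Total scaling moved the median of all genes to 0.050. The 4 members with WT livers more than 2-fold apart were also 4 under the other pseudocounts and scalings, chosen after seeing the data. The median of the male-biased list, 0.47 in limma, was 0.044 with DESeq2 and 0.066 with edgeR. Depth leaves Cux2, with 36 to 266 reads per liver, the least precise member by counting error.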

Other observations

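Of the cell types of liver, the Kupffer cell and macrophage list held the most genes called by limma. Of 12 Kupffer cell and macrophage markers, limma called 4 lower (Cd5l, Clec4f, Marco and Cd163), edgeR 5 and DESeq2 6 (those 4, Timd4 and Vsig4), against 0.321%, 0.315% and 3.59% of all genes in either direction. Their summed normalized counts were 16646 and 18434 in WT, 11766 and 6994 in LXRDKO. Timd4, a receptor of resident Kupffer cells, was measured at 266 and 288 normalized counts in the WT replicates and at 4.75 and 0 in the LXRDKO replicates, with an adjusted P value of 0.060 in limma and 4.55e-18 in DESeq2. The 6 biliary markers were all higher in LXRDKO without overlap, as were 21.7% of all genes, with a median log2 difference of 0.83, of which limma called 0 (3 without adjustment, against 13.3% of all genes), edgeR 0 and DESeq2 1 (Epcam), against 1.56% of all genes higher. The 8 lymphocyte markers, of which 7 were tested, summed to between 233 and 324 normalized counts per liver, and limma, edgeR and DESeq2 called 0 of them, with 4 passing in limma without adjustment, against 13.3% of all genes.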
